A study of Bos taurus with 32 samples.

Results

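The receptors through which estrogen, progesterone, glucocorticoid, oxytocin, prolactin and growth hormone act on the cyclic bovine endometrium were examined as 9 genes: ESR1, ESR2, PGR, PGRMC1, NR3C1, HSD11B1, OXTR, PRLR and GHR. HSD11B1 is an enzyme and was kept with the glucocorticoid receptor it serves. Members were found by gene symbol in the annotation of the array, which gave 1 probe for each of the 9 genes, of 5685 genes with a symbol and 15208 probes in all. A further 8 probes whose annotation leads to ESR1, GHR or NR3C1 by another route are described beside them and are not counted as members.

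All tissue came from non-lactating Japanese Black cows collected at slaughter when the estrous cycle had reached Day 15. Repeat breeder (RB) cows had shown estrus and a healthy tract on palpation but had not conceived after repeated inseminations. Normally fertile (non-RB) cows had conceived, had then been aborted with prostaglandin F2α, and had returned to normal cycles, so that a recent pregnancy and its induced loss belong to the non-RB cows alone and cannot be told apart from fertility. Caruncular (CAR) endometrium, the aglandular patches where placentomes form, and the gland-bearing intercaruncular (ICAR) endometrium between them were sampled separately in the uterine horn ipsilateral to the corpus luteum and in the contralateral horn. RB status, compartment and horn make 8 groups of 4 arrays, 32 in all, each array carrying RNA of 1 sample labelled with Cy3. The labels number the samples of each group 1 to 4, and the study used 4 cows of each kind, but no label states that a number is a cow. The p-values therefore measure the spread among these arrays. In bulk tissue of this kind, fewer cells of a type and less RNA per cell cannot be told apart.

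In ruminants PGR is lost from the endometrial epithelium during the luteal phase, under progesterone itself. Estrogen receptor and then OXTR rise in the epithelium as that block is lifted, and oxytocin acting on OXTR drives the prostaglandin F2α pulses that end the life of the corpus luteum. ESR1, ESR2, PGR and NR3C1 are nuclear receptors that bind DNA, PGRMC1 is a membrane-associated protein linked to progesterone responses, OXTR is a Gq-coupled receptor, and PRLR and GHR are cytokine receptors that signal through JAK2 and STAT5. HSD11B1 regenerates active cortisol from cortisone inside the cell.

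Each probe is a DNA oligonucleotide of 60 bases, and what it measures depends on which transcripts carry its sequence. The files name no genome build for the probes, so no coordinates are given. The ESR1 member probe, ABR1886, and a second ESR1 probe, ABR1454, are printed because their annotation differs although they share an unbroken run of 20 bases, shown in capitals, and 39 of 44 aligned bases.
ESR1 ABR1886: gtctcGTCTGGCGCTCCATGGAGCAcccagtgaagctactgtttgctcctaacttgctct
ESR1 ABR1454: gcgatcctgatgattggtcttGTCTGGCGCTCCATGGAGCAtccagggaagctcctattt

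The probes for PGR and NR3C1 are printed because progesterone and glucocorticoid receptors are close relatives, and aligned bases that are identical are in capitals. Of 56 aligned bases 33 were identical, and the longest run that any member probe shared with a probe of another gene on the array was 15 bases or shorter.
PGR ABR420: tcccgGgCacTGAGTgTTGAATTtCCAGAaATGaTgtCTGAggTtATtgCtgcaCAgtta
NR3C1 ABR1473: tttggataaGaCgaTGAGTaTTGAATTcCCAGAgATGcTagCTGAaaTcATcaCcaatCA

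For the members whose levels varied most between groups, the leading 30 bases identify the probe.
ESR2 ABR338: tcagggtgcaaaagccagtactcttgtcat
OXTR ABR924: gattctcttcggagactgtctggcacaggc
PRLR ABR278: tgggaagatggtagataggagagaaatgcc
GHR ABR81: aatcatgccatagcttttctttgatttcct

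GHR is read by 6 probes. Stretches of 3 of them are printed because they overlap in the 15 bases in capitals and still gave different values, described with that gene.
GHR ABR1458, bases 26 to 55: gaAGGTCCTACAGGTATggatctctggcag
GHR ABR1850, bases 31 to 60: cctacactgagccagAGGTCCTACAGGTAT
GHR ABR1899, bases 31 to 60: tgagtgaAGGTCCTACAGGTATggatctct

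Levels are given as log2 of the processed signal minus the 75th percentile of that array, so 0 is the level of a bright probe and each unit is a doubling. Levels of different probes cannot be set against each other on this scale. The 75th percentile itself ran from 1165 to 4857 signal units over the 32 arrays, and 74.3% to 85.8% of probes were well above background on each. The arrays lay on 8 slides scanned on 5 days. Slide 2 carried only RB arrays, all 8 of replicates 2 and 3, and slide 4 a single RB array. Slides 1, 3, 5 and 7 carried only non-RB arrays, so slides 6 and 8 alone held both. In CAR ipsilateral no slide held both, so RB status and slide cannot be told apart there, and only in part elsewhere. The 2 arrays on slide 1 had control spots more scattered than those of any other slide. Markers of endometrial tissue were present, with 8 of 8 stromal and 9 of 9 epithelial marker genes with a probe well above background. The compartment labels were checked by taking, for each replicate number and horn, the difference CAR minus ICAR over all probes and correlating it with the mean difference of the other numbers. In 13 of 16 such pairs r was 0.122 to 0.787. The arrays labelled RB replicate 3 contralateral gave r = -0.818, so that their CAR and ICAR differed the opposite way to the rest, and non-RB replicate 2 gave -0.191 and -0.0528. Labels were used as deposited, and the tests of CAR against ICAR are given with and without the RB replicate 3 contralateral arrays, a second fit that was added after seeing the data.

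The levels of all 9 members in the 8 groups are drawn first. Group means of ESR2 spanned 3.22 on the log2 scale, the widest of the 9, followed by PRLR at 1.86, GHR at 1.78 and OXTR at 1.10. The narrowest spans were 0.60 for PGR and 0.44 for NR3C1. When the 8 group means of a member were put in order, neighbours differed by less than the larger of their SDs throughout, with 1 exception: for GHR, CAR contralateral RB at -0.78 and CAR contralateral non-RB at -1.52 were 0.74 apart against an SD of 0.58. All members except ESR1 and PRLR were well above background on 32 of 32 arrays. PRLR was so on 17 and ESR1 on 8.

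**Figure D1:**
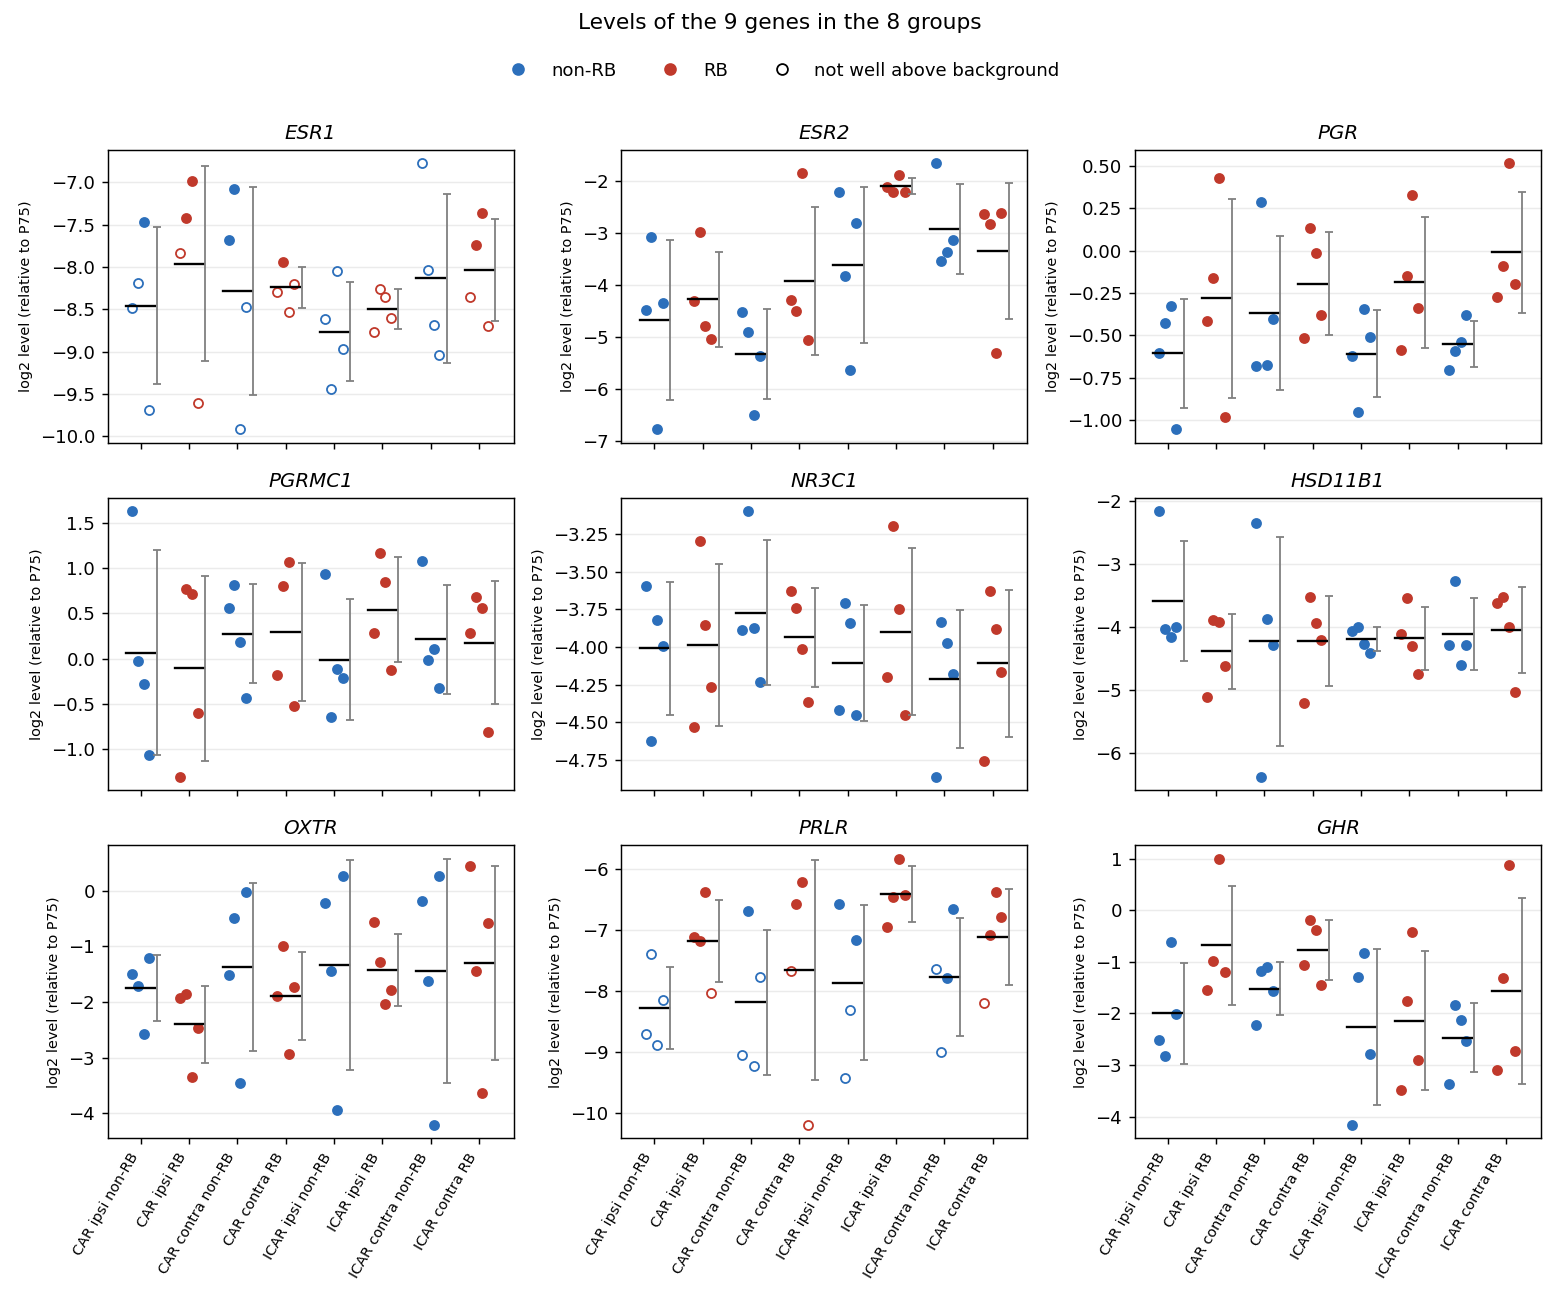
Level of each of the 9 member probes, as log2 signal minus the 75th percentile of the array, in the 8 groups of 4 arrays. Each point is an array, open where the probe was not well above background, with the group mean as a bar and the SD in grey. ESR2 lies lower in most CAR arrays than in ICAR arrays, PRLR and ESR1 are near background, and RB and non-RB points overlap for nearly every member and compartment.

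RB cows were compared with non-RB cows in each compartment and horn and over the whole uterus, 4 against 4, with limma and Benjamini-Hochberg adjustment over all probes tested. No member passed an adjusted p of 0.05 in any of these 5 comparisons, and neither did any other probe, so that 0% of probes were called in each. At an unadjusted p below 0.05, PRLR alone passed in CAR ipsilateral, where 3.41% of all probes did. None of 9 passed in CAR contralateral, against 1.74% of probes. ESR2 and PRLR passed among 8 members tested in ICAR ipsilateral, against 3.69%, and PGR in ICAR contralateral, against 1.6%. Over the whole uterus, with the 4 arrays of a number averaged first, PRLR passed, against 2.21% of all probes. The methods' t-test, on the same values and means of a number, gave 1 member below 0.05, in ICAR contralateral, and 0 after adjustment. For the whole uterus the study's methods counted 16 arrays a group, and that form of the methods' t-test gave 2 of 9 members below 0.05, PGR at 0.37 (unadjusted p = 0.0058, adjusted p = 0.181) and PRLR at 0.93 (unadjusted p = 0.0137, adjusted p = 0.240), and 0 after adjustment. The 4 arrays of a number are not independent in that form.

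Most members were nominally higher in RB cows. The direction was upward for 6 of 9 in CAR ipsilateral, 7 of 9 in CAR contralateral, 7 of 8 in ICAR ipsilateral, 7 of 9 in ICAR contralateral and 7 of 9 over the whole uterus. The median member difference was 0.32, 0.05, 0.32, 0.10 and 0.23 in that order, while the median over all probes was 0.02 or smaller in size in each except ICAR ipsilateral, at -0.03. With the 4 arrays of a number averaged, PGR was at -0.07 in RB 2 and 0.32 in RB 3. RB 1 and RB 4, at -0.45 and -0.48, lay within the non-RB range of -0.65 to -0.42. On the member probes of ESR1, PRLR and GHR, too, RB 2 and RB 3 alone lay above the non-RB range, which was not so for the other members. The ESR1 member probe was mostly at background. On the brighter ESR1 probe ABR1454 non-RB 2 was the highest number, at -5.18, and on ABR950 only RB 3 exceeded the non-RB range. Of the other GHR probes ABR1899 alone gave the same order. All arrays of RB 2 and RB 3 lay on slide 2, which held only RB arrays, so for them RB status and slide cannot be told apart. The RB and non-RB arrays did not overlap for ESR2 in ICAR ipsilateral, where 2.23% of all probes did not overlap, and for PGR in ICAR contralateral, against 1.48%. They overlapped for every member in CAR ipsilateral, CAR contralateral and the whole uterus, where 1.97%, 1.37% and 1.19% of probes did not overlap. A test of 4 against 4 by exact permutation cannot give a p below 0.0286.

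CAR and ICAR were compared over all 32 arrays, 16 against 16, in a model that also held horn and RB status. ESR2, the second nuclear estrogen receptor, was the member that differed after adjustment. It was 2.94-fold lower in CAR, a log2 difference of -1.55 (SE 0.39, 95% interval -2.34 to -0.76, adjusted p = 0.041). This was 1 of 9 members, beside 1.35% of all probes called in either direction and 0.96% called lower in CAR. GHR was higher in CAR by 0.87 (SE 0.37, unadjusted p = 0.024, adjusted p = 0.216), and these were the only members with an unadjusted p below 0.05, against 16.2% of all probes. For the other 7 members the difference was between -0.53 and 0.15. Without the 2 arrays labelled RB replicate 3 contralateral, 9.92% of all probes were called. ESR2 was still the called member, GHR was at 1.01 (adjusted p = 0.0601), and the other 7 were PRLR at -0.58, OXTR at -0.56, PGRMC1 at -0.14, PGR at 0.01, HSD11B1 at 0.02, NR3C1 at 0.17 and ESR1 at 0.21, with adjusted p of 0.343 or more. When the replicate number was fitted as a block, GHR was called as well, although no label states that a number is a cow. Those values are given with the alternatives.

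ESR2 was read at -4.49, -3.08, -6.78 and -4.34 in non-RB replicates 1 to 4 of CAR ipsilateral and at -4.31, -2.98, -4.79 and -5.05 in RB. In CAR contralateral it was at -4.52, -4.91, -6.51 and -5.37 in non-RB and at -4.29, -4.51, -1.84 and -5.07 in RB. The lowest CAR values belonged to non-RB replicate 3, and the array labelled RB 3 contralateral was the highest CAR array of all. In ICAR ipsilateral the values were -2.22, -3.82, -5.65 and -2.81 in non-RB and -2.12, -2.20, -1.88 and -2.21 in RB. In ICAR contralateral they were -1.66, -3.53, -3.36 and -3.14 in non-RB and -2.63, -2.82, -5.31 and -2.62 in RB. Here the array labelled RB 3 contralateral was far below its group. Pair by pair, ESR2 was lower in CAR in 14 of 16 pairs of the same number and horn, with a median of -1.94, and the pairs that went the other way were RB replicate 3 contralateral at 3.47 and non-RB replicate 2 ipsilateral at 0.74. Without the 2 arrays labelled RB replicate 3 contralateral the difference was -1.89 (SE 0.33, adjusted p = 0.000671). The call was lost when any of the 6 replicate numbers other than RB 3 and non-RB 2 was left out, with adjusted p between 0.0553 and 0.292.

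Some markers of epithelium were also lower in CAR. Of 8 genes listed for glandular epithelium 5 had a probe, and 3 of these were called lower in CAR: BPIFB1, a secreted epithelial protein, by -2.11, SPDEF, a transcription factor of secretory cells, by -1.92, and FOXA2, needed for gland formation, by -1.69. MSX1, a homeobox factor, was at -0.89 (adjusted p = 0.091) and SERPINA14, the uterine serpin secreted by the glands, at 0.07 (limma unadjusted p = 0.887). The summed level of the 5 was 1.44 to 4.19 over CAR arrays (median 2.60) and 1.69 to 4.63 over ICAR arrays (median 3.95). The highest CAR array and the lowest ICAR array were both labelled RB 3 contralateral. Of 3 ciliated cell markers with a probe 2 were also called lower in CAR, with a median of -1.22. Luminal and general epithelial markers were nominally lower for 9 of 9 genes with a probe, by a median of -0.35, with 4 below an unadjusted p of 0.05 and 0 called. When the arrays labelled RB replicate 3 contralateral were left out, 4 of 5 glandular, 3 of 3 ciliated and 4 of 9 luminal and general epithelial markers were called lower, with medians of -2.03, -1.43 and -0.40, and SERPINA14 was at -0.02. Over the 32 arrays the 3 named genes whose level was most like that of ESR2 were SUSD2 (r = 0.936), LRAT (r = 0.933), which esterifies retinol, and IHH (r = 0.931), a progesterone-induced epithelial ligand, among 4896 named probes searched. The arrays share cows, slides and compartments, so these r are descriptions. The part that epithelial content has in the ESR2 difference was not tested.

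**Figure D2:**
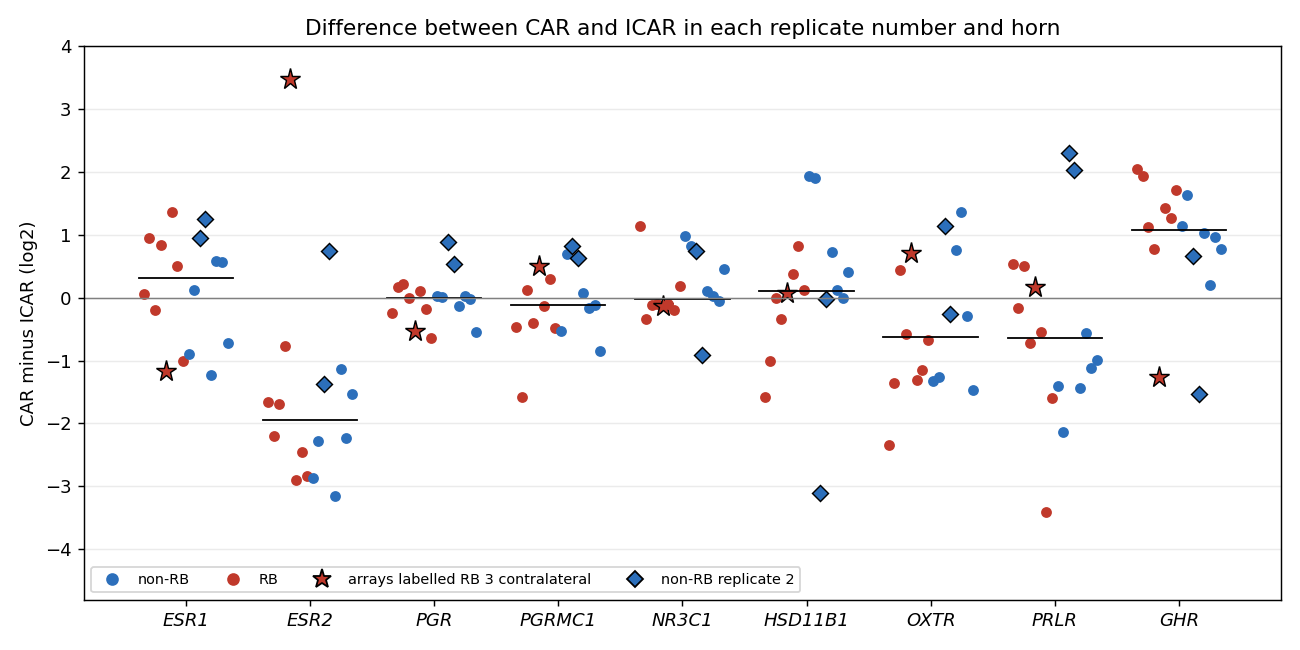
CAR minus ICAR difference on the log2 scale for each member, in the 16 pairs of the same replicate number and horn. The line is the median, stars are the pair labelled RB 3 contralateral and diamonds non-RB replicate 2. ESR2 is below 0 in 14 of 16 pairs and GHR above 0 in 14 of 16, and the star lies opposite to the median in both.

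Between RB and non-RB cows, ESR2 in ICAR ipsilateral averaged -2.10 ± 0.15 in RB and -3.62 ± 1.5 in non-RB (SD, n = 4). The lowest RB array, -2.21, and the highest non-RB array, -2.22, did not overlap but were almost level. The difference was 1.52 (SE 0.63, adjusted p = 0.863; exact permutation p = 0.0286, the smallest possible). In the same comparison all 5 glandular markers were nominally higher in RB, by a median of 1.3, and their summed level was 4.09 to 4.63 in RB and 2.04 to 4.41 in non-RB. The summed level of the luminal and general epithelial markers was 5.17 to 5.70 in RB (median 5.45) and 4.73 to 5.94 in non-RB (median 5.66). The marker lists were chosen with earlier results of these data known, so they are not independent of this comparison. The part of epithelial content in this ESR2 difference was not tested. In CAR contralateral the ESR2 difference was 1.4 (SE 0.71, adjusted p = 1.0), in CAR ipsilateral 0.39, in ICAR contralateral -0.42 and over the whole uterus 0.72 (95% interval -0.26 to 1.70). CAR contralateral and ICAR contralateral both hold an array labelled RB replicate 3 contralateral, and without it their differences were 0.70 (SE 0.48) and 0.23 (SE 0.45).

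ESR1, the main estrogen receptor of the uterus, was dim on its member probe. It lay between -9.92 and -6.77 and was well above background on 8 of 32 arrays, too few in ICAR ipsilateral to be tested there. Its differences were 0.50 in CAR ipsilateral, 0.05 in CAR contralateral, 0.09 in ICAR contralateral and 0.23 over the whole uterus, all with adjusted p = 1.0. CAR and ICAR differed by 0.12 (95% interval -0.43 to 0.67). Of the other ESR1 probes, ABR950 was well above background on 29 of 32 arrays and ABR1454, which shares the run printed above, on 32. ABR950 was higher in CAR by 0.45 (unadjusted p = 0.043, adjusted p = 0.287) and ABR1454 by 0.25 (adjusted p = 0.507). These differences were 0.55 (adjusted p = 0.109) and 0.27 without the 2 arrays labelled RB replicate 3 contralateral. In ICAR ipsilateral both probes were nominally lower in RB. ABR1454 was there at -5.84 ± 0.40 in RB and -5.46 ± 0.47 in non-RB, and ABR950 at -7.26 ± 0.21 and -6.91 ± 0.68 (SD, n = 4). In CAR ipsilateral, CAR contralateral and ICAR contralateral both were nominally higher in RB. In CAR ipsilateral ABR1454 was at -5.12 ± 0.25 in RB and -5.71 ± 0.23 in non-RB (SD, n = 4) with no overlap, a difference of 0.59 (SE 0.25, adjusted p = 1.0; exact permutation p = 0.0286).

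PGR, which carries the response to progesterone, stayed within a narrow band from -1.06 to 0.52 over all 32 arrays. In ICAR contralateral it was at -0.71, -0.59, -0.54 and -0.38 in non-RB replicates 1 to 4 and at -0.27, -0.09, 0.52 and -0.20 in RB. Every RB array was above every non-RB array, and RB replicate 3, whose compartment label is in doubt, was the highest. The difference was 0.54, or 1.46-fold (SE 0.24, adjusted p = 1.0; exact permutation p = 0.0286), and 0.37 (SE 0.21) without that array. In ICAR ipsilateral PGR was at -0.62, -0.96, -0.35 and -0.51 in non-RB and at -0.58, -0.15, 0.33 and -0.34 in RB, which overlap, with a difference of 0.42 (SE 0.25). It was 0.32 in CAR ipsilateral, 0.18 in CAR contralateral and 0.37 over the whole uterus (95% interval -0.09 to 0.83). CAR and ICAR were level, with a difference of -0.02 (95% interval -0.28 to 0.24) and 8 of 16 pairs higher in each.

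PGRMC1 varied more among replicate numbers than among groups. In CAR ipsilateral it was at 1.63, -0.03, -0.28 and -1.07 in non-RB and at -1.31, 0.76, 0.72 and -0.60 in RB, so that each group held both high and low arrays. The difference between RB and non-RB was -0.17 in CAR ipsilateral, 0.02 in CAR contralateral, 0.55 in ICAR ipsilateral (SE 0.39), -0.03 in ICAR contralateral and 0.09 over the whole uterus (95% interval -0.82 to 1.0). Between CAR and ICAR it was -0.10 (95% interval -0.61 to 0.42).

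NR3C1, the glucocorticoid receptor, was the steadiest member across groups, with arrays from -4.86 to -3.10. Its RB minus non-RB difference was 0.02, -0.16, 0.21 and 0.10 in CAR ipsilateral, CAR contralateral, ICAR ipsilateral and ICAR contralateral, and 0.04 over the whole uterus (95% interval -0.46 to 0.55). The second NR3C1 probe, ABR1748, gave 0.25 over the whole uterus (95% interval -0.48 to 0.99). CAR exceeded ICAR by 0.15 on the member probe (95% interval -0.16 to 0.47) and by 0.22 on the other, or by 0.17 and 0.21 without the 2 arrays labelled RB replicate 3 contralateral.

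HSD11B1, which supplies that receptor with cortisol, lay near -4 in most arrays. In CAR ipsilateral it was at -2.16, -4.02, -4.15 and -4.00 in non-RB and at -5.12, -3.89, -3.93 and -4.62 in RB. In CAR contralateral it was at -2.35, -6.38, -3.88 and -4.29 in non-RB and at -5.20, -3.53, -3.93 and -4.21 in RB. Non-RB replicate 1 was the highest and RB replicate 1 among the lowest in CAR of both horns, while ICAR arrays of all 8 numbers stayed between -5.02 and -3.28. The groups overlapped, and the difference was -0.80 in CAR ipsilateral (SE 0.48, adjusted p = 1.0), 0.01 in CAR contralateral, 0.01 in ICAR ipsilateral, 0.07 in ICAR contralateral and -0.18 over the whole uterus (95% interval -0.89 to 0.54). Without non-RB replicate 1 it was -0.33 (SE 0.35) in CAR ipsilateral, 0.63 (SE 0.65) in CAR contralateral and 0.09 (SE 0.26) over the whole uterus. CAR and ICAR differed by 0.03 (95% interval -0.53 to 0.58).

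OXTR, the receptor of the luteolytic oxytocin signal, differed greatly between replicate numbers. In ICAR ipsilateral it was at -0.22, -1.45, -3.94 and 0.27 in non-RB replicates 1 to 4 and at -0.56, -1.29, -2.04 and -1.79 in RB. In ICAR contralateral it was at -0.18, -1.63, -4.21 and 0.27 in non-RB and at 0.45, -1.44, -3.64 and -0.58 in RB. Non-RB replicate 3 was the lowest non-RB array in each of the 4 compartments, and RB replicate 3 was the lowest RB array in each. In CAR ipsilateral OXTR was at -1.49, -1.71, -2.58 and -1.20 in non-RB and at -1.92, -1.86, -3.35 and -2.47 in RB. In CAR contralateral it was at -1.51, -0.50, -3.45 and -0.02 in non-RB and at -1.89, -1.0, -2.94 and -1.74 in RB. The groups overlapped throughout. The differences were -0.65 in CAR ipsilateral (SE 0.41), -0.52 in CAR contralateral, -0.08 in ICAR ipsilateral, 0.14 in ICAR contralateral and -0.28 over the whole uterus, where the 95% interval ran from -1.84 to 1.27. Without RB replicate 3 the difference was -0.17 (SE 0.76) in CAR contralateral, 0.92 (SE 1.04) in ICAR contralateral and 0.13 (SE 0.69) over the whole uterus. With slide as a block the ICAR contralateral difference was 2.86 (SE 0.84, unadjusted p = 0.022, adjusted p = 1.0) and the ICAR ipsilateral one 1.52. In ICAR only slides 6 and 8 held both RB and non-RB arrays. The blocked values therefore rest on RB 1 against non-RB 2 and on RB 4 against non-RB 3, the lowest number for OXTR. OXTR was lower in CAR by 0.48 on average, in 11 of 16 pairs, a difference that did not pass the test (adjusted p = 0.673).

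PRLR, the prolactin receptor, was near background and is therefore measured only in part. In CAR ipsilateral it was at -8.71, -7.40, -8.88 and -8.15 in non-RB, none of them well above background, and at -7.12, -7.18, -6.39 and -8.03 in RB, where the first 3 were. RB exceeded non-RB by 1.10 (SE 0.42, adjusted p = 1.0; exact permutation p = 0.057). Since no non-RB array measured it, the RB mean of -7.18 was also set against the dimmest signal well above background on the non-RB arrays, -7.59. It was 1.32-fold above that floor. This is not a strict lower bound, because the RB mean includes the array at -8.03 and the non-RB array at -7.40 lay above the floor. The value also holds for this scaling only, since with another background correction (normexp) the RB minus non-RB difference was 0.05 (SE 0.24, adjusted p = 0.986). In ICAR ipsilateral PRLR was at -6.57, -9.43, -8.31 and -7.16 in non-RB and at -6.95, -6.46, -5.84 and -6.44 in RB, with a difference of 1.45 (SE 0.57, adjusted p = 0.863; exact permutation p = 0.057). The RB array at -6.95 lay below the non-RB array at -6.57, so the groups overlapped, and 2 of the 4 non-RB arrays were not well above background. The difference was 0.52 in CAR contralateral, 0.66 in ICAR contralateral and 0.93 over the whole uterus (SE 0.37, adjusted p = 1.0; exact permutation p = 0.086). Without RB replicate 3 these were 0.04 (SE 0.92), 0.41 (SE 0.57) and 0.64 (SE 0.33). Across the alternatives the ICAR ipsilateral difference ran from 0.20 to 2.18. With normexp the value over the whole uterus was -0.014, so its direction rests on how dim signals are treated.

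GHR, the growth hormone receptor, was nominally higher in RB cows in all 4 compartments in the main fits, but in ICAR ipsilateral the direction changed under alternatives given below. In CAR ipsilateral it was at -2.52, -2.83, -0.62 and -2.0 in non-RB and at -1.55, -0.98, 1.0 and -1.20 in RB, where RB replicate 3 was the highest array of the 32. In CAR contralateral it was at -2.23, -1.18, -1.10 and -1.56 in non-RB and at -1.06, -0.20, -0.39 and -1.46 in RB. The groups overlapped in both, with differences of 1.31 (SE 0.62, adjusted p = 1.0) and 0.74 (SE 0.36, adjusted p = 1.0). In ICAR ipsilateral GHR was at -4.16, -1.30, -0.83 and -2.78 in non-RB and at -3.48, -1.75, -0.43 and -2.91 in RB, a difference of 0.12. Without RB replicate 3 this difference was -0.45 (SE 0.79). With slide as a block it was -2.13 (SE 0.49, limma unadjusted p = 0.0065, adjusted p = 0.237). That value rests on slides 6 and 8 alone, with RB 1 against non-RB 2 and RB 4 against non-RB 3. In ICAR contralateral it was at -3.36, -1.84, -2.13 and -2.53 in non-RB and at -3.10, -1.32, 0.87 and -2.73 in RB, a difference of 0.90 (SE 0.81) that was 0.08 (SE 0.52) without the array labelled RB replicate 3. Over the whole uterus the difference was 0.77 (95% interval -0.53 to 2.07), and without RB replicate 3 it was 0.25.

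Between compartments GHR was at -1.24 ± 0.94 in CAR and -2.11 ± 1.29 in ICAR (SD, n = 16) and was higher in CAR in 14 of 16 pairs. The exceptions were again RB replicate 3 contralateral and non-RB replicate 2 ipsilateral. Without the 2 arrays labelled RB replicate 3 contralateral the difference was 1.01 (SE 0.35, adjusted p = 0.0601). With the replicate number as a block, GHR passed adjustment with and without these arrays, as given with the alternatives. Stromal markers were nominally higher in CAR for 8 of 8 genes with a probe, by a median of 0.42, with 5 below an unadjusted p of 0.05 and 0 called. Without the same 2 arrays the stromal median was 0.50, and 1 of 8 was called. Over 32 arrays the genes most like GHR in level were COL1A2, a fibrillar collagen chain (r = 0.861), SEC24D, of the coat that exports collagen from the endoplasmic reticulum (r = 0.857), and FGF2 (r = 0.856). COL1A2 is itself on the stromal list. The part of stromal content in the GHR difference was not tested.

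The other GHR probes did not all give the same contrast. ABR1850 was higher in CAR by 0.95 (adjusted p = 0.107), ABR1458 by 0.75 (adjusted p = 0.154) and ABR1457 by 0.71 (adjusted p = 0.252), each close to the member probe. ABR1457 and ABR1850 are identical at 56 of 60 aligned bases, so these are not independent readings. ABR1899, which holds the same 15 bases as ABR1850 and ABR1458, differed by 0.09 (95% interval -0.26 to 0.43). Leaving out the 2 arrays labelled RB replicate 3 contralateral, ABR1850 was at 1.04 (adjusted p = 0.0376) and ABR1458 at 0.88 (adjusted p = 0.0450), both past the threshold, ABR1457 at 0.80 (adjusted p = 0.116) and ABR1899 at 0.11. ABR1899 was nominally higher in RB in each compartment, as was the member probe in the main fits. Its differences were 0.70, 0.56, 0.59 and 0.79 in CAR ipsilateral, CAR contralateral, ICAR ipsilateral and ICAR contralateral. Over the whole uterus its difference was 0.66 (SE 0.29, adjusted p = 1.0, exact permutation p = 0.086). ABR1793 was well above background on 3 arrays and was not tested over all 32.

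**Figure D3:**
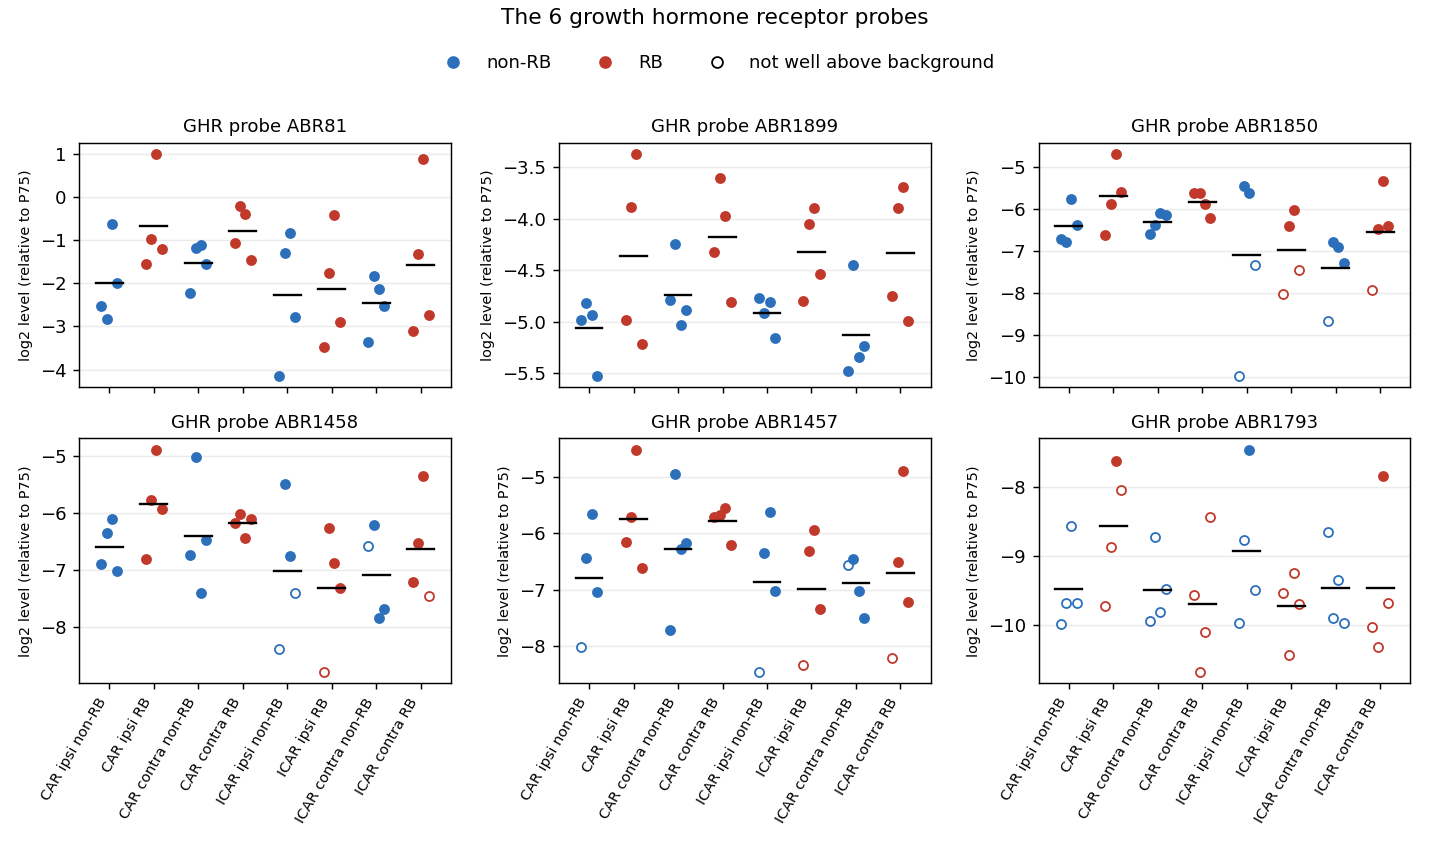
Levels of the 6 GHR probes, each as log2 signal minus the 75th percentile of the array, in the 8 groups of 4 arrays, open where not well above background, with the group mean as a bar. The member probe, ABR1850, ABR1458 and ABR1457 lie lower in ICAR than in CAR on average, ABR1899 lies at a like level in both, and ABR1793 is mostly at background.

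Whether the RB difference itself depended on compartment or horn was tested on the differences within each number. No member and no probe passed after adjustment for CAR against ICAR or for ipsilateral against contralateral (0% called in each). At an unadjusted p below 0.05 there was no member in either, against 0.882% and 5.98% of all probes. The largest were -0.61 for OXTR and 0.52 for GHR between compartments and 0.69 for PRLR between horns (95% interval -0.11 to 1.48). The compartment test holds the RB 3 contralateral pair, whose CAR and ICAR differed the opposite way to the rest. Without RB replicate 3 it gave -0.78 (SE 0.62) for OXTR and 0.86 (SE 0.44) for GHR. ESR2 then changed sign, to -0.21 (SE 0.54), and no member was called. No member's compartment difference was free of overlap between RB and non-RB cows, against 0.704% of all probes. HSD11B1 did not overlap in its horn difference, where 3.95% of all probes did not, which was -0.15 ± 0.06 in RB and 0.28 ± 0.36 in non-RB (SD, n = 4; exact permutation p = 0.0286, adjusted p = 0.799).

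The horn ipsilateral to the corpus luteum did not differ detectably from the contralateral horn for any member. Differences over 16 against 16 arrays lay between -0.24 for ESR1 and 0.24 for PRLR, and by limma the smallest unadjusted p, 0.290, was that of PGR, at -0.14 (95% interval -0.40 to 0.12). Of all probes 0% were called and 1.36% had an unadjusted p below 0.05. NR3C1 was higher in the ipsilateral horn in 12 of 16 pairs, by a median of 0.13, and the other members in 5 to 10 of 16.

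For OXTR, PGRMC1 and GHR the replicate number explained most of the spread inside a group. The share of the variance within RB or non-RB, compartment and horn that lay between numbers was 78.0% for OXTR, 76.6% for PGRMC1 and 75.1% for GHR. The median over 12919 probes was 47.7%. PGR had 53.9%, NR3C1 47.0%, ESR2 40.2%, HSD11B1 37.2%, PRLR 33.7% and ESR1 33.2%. The mean of the 4 arrays of a number ran from -3.55 in non-RB 3 to -0.17 in non-RB 4 for OXTR, from -3.07 in non-RB 1 to 0.26 in RB 3 for GHR, and from -0.52 in RB 4 to 1.05 in non-RB 1 for PGRMC1. Both ends of the OXTR range are therefore non-RB replicate numbers. All 4 arrays of RB 2, RB 3, RB 4 and non-RB 4 lay on 1 slide each, so for these numbers the animal and the slide cannot be told apart.

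**Figure D4:**
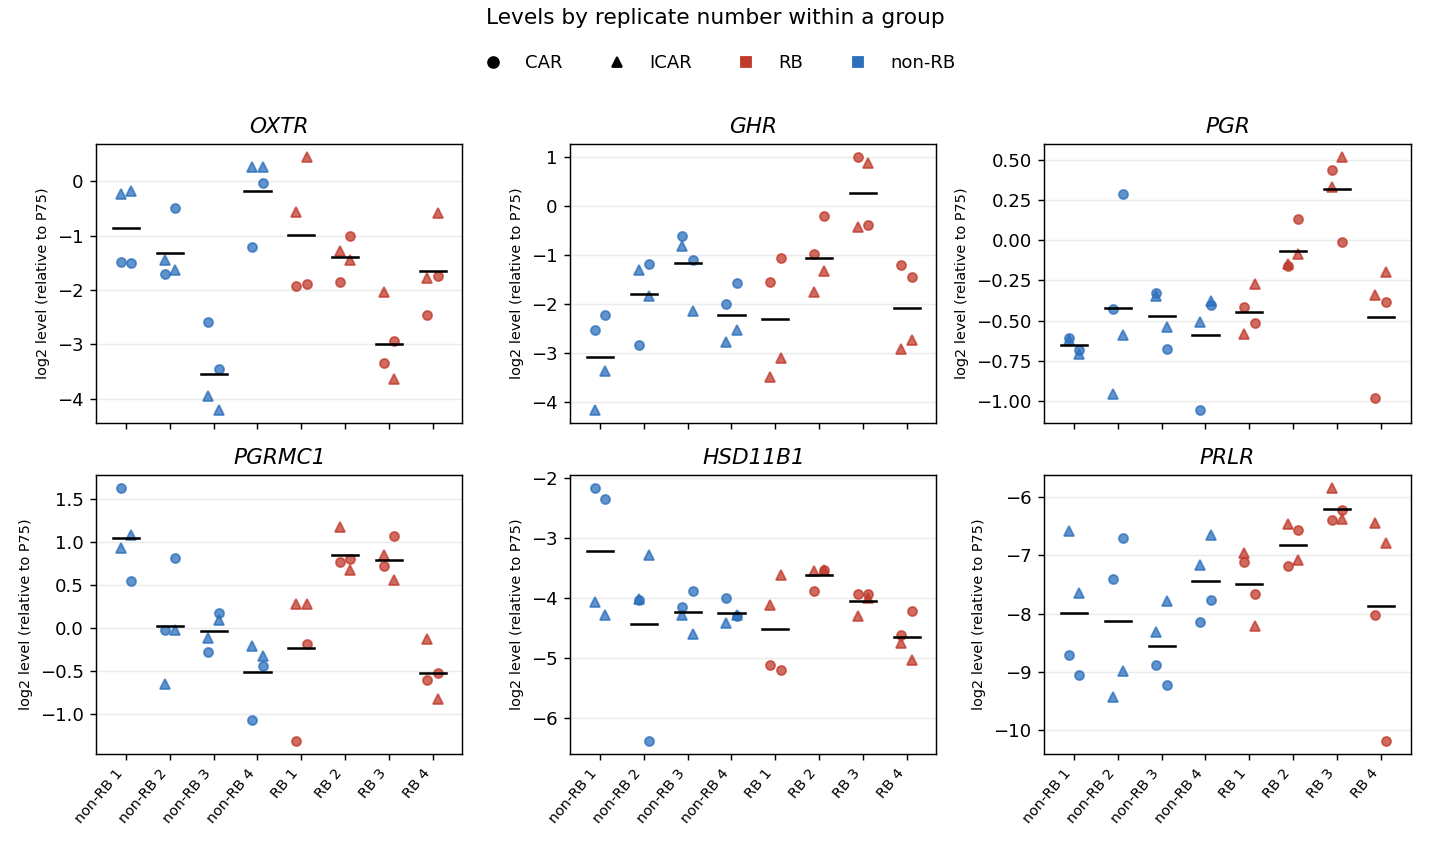
Levels of OXTR, GHR, PGR, PGRMC1, HSD11B1 and PRLR in the 4 arrays of each replicate number of RB and non-RB cows, as log2 signal minus the 75th percentile of the array, with the mean of the 4 as a line. The 4 arrays of a number lie together for OXTR, GHR and PGRMC1, with OXTR lowest in non-RB 3 and GHR highest in RB 3.

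Across the 8 numbers, each averaged over its 4 arrays, the 9 members give 36 pairs, each tested by exact permutation with Benjamini-Hochberg adjustment over the 36. The permutation exchanged all 8 numbers regardless of RB status and slide, and no label states that a number is a cow. PGR and GHR varied together (Pearson r = 0.912, exact p = 0.00134, adjusted p = 0.0295; Spearman rho = 0.810, exact p = 0.0218, adjusted p = 0.261), with r = 0.699 when the 2 numbers farthest from the median were left out. PGRMC1 and HSD11B1 gave r = 0.873 (exact p = 0.00181, adjusted p = 0.0295; rho = 0.881, adjusted p = 0.193) and 0.714 without the farthest 2. ESR1 and PGRMC1 gave r = 0.915 (exact p = 0.00246, adjusted p = 0.0295; rho = 0.857, adjusted p = 0.193) and 0.892 without the farthest 2, with ESR1 largely at background. None of the 36 passed by rank after adjustment. PGR and PRLR gave r = 0.832 (exact p = 0.0113, adjusted p = 0.102), which was -0.203 without the farthest 2 and so rests on those numbers. OXTR and GHR ran opposite, r = -0.725 (exact p = 0.0436, adjusted p = 0.314), and -0.448 without the farthest 2. RB 2 and RB 3, both on slide 2, were the highest numbers for PGR, GHR and PRLR. For pairs of these genes a shift with RB status or slide cannot be told apart from covariation among numbers. No slide holds enough numbers for a value within it.

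Likeness in level over the 32 arrays was also computed for the remaining members, as a description. PGR was most like SMNDC1 (r = 0.878), a splicing factor, KRIT1 (0.878) and ZNF135 (0.835). PGRMC1 was most like SLC12A2 (0.882), an ion cotransporter, LSM4 (0.879) and CYP51A1 (0.873), an enzyme of cholesterol synthesis. OXTR was most like TAT (0.784), IER3 (0.784) and SCNN1A (0.777), a subunit of the epithelial sodium channel. HSD11B1 was most like PSPH (0.826), NQO1 (0.816) and MTRF1L (0.797). NR3C1 with TRIM6 (0.734), CALD1 (0.731) and POSTN (0.730), PRLR with ING2 (0.757), GUCY1A1 (0.755) and ATP2C1 (0.736), and ESR1 with RUFY1 (0.816), ASPH (0.810) and RCSD1 (0.783) gave the remaining triplets.

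The genes around the receptors gave few differences. Of 26 steroid-metabolizing enzymes listed, 16 had a probe and 13 were tested, and AKR1C1, a reductase that acts on progesterone in other tissues, was called lower in CAR by 3.08-fold (log2 difference -1.62, adjusted p = 0.0397). Of 30 progesterone-responsive genes, 20 had a probe and 18 were tested, and IHH was called lower in CAR by 3.07-fold (log2 difference -1.62, adjusted p = 0.0379). None was called between compartments among 9 receptor co-factors, 14 genes of the oxytocin system and Gq signalling, 12 of prolactin and growth hormone signalling, 13 estrogen-responsive or 9 glucocorticoid-responsive genes. The list medians for CAR minus ICAR were between -0.11 and 0.10, beside 0.02 over all probes. In the fit without the 2 arrays labelled RB replicate 3 contralateral, AKR1C1 was at -1.99 and IHH at -1.96, and further genes were called beside the 9.92% of all probes, named here after their values were seen. Among 12 prolactin and growth hormone signalling genes, IGF1 (1.21), which growth hormone induces in liver, and IGFALS (0.99), which binds circulating IGF complexes, were then called higher in CAR. Among the oxytocin and Gq genes, PRKCB (0.75) and the calcium channel ITPR1 (0.38) were called higher and ITPR2 (-1.09) lower. Of 13 estrogen-responsive genes, IGFBP4 (0.70) and BCL2 (0.57) were called higher and PDZK1 (-1.02) and MUC1 (-0.89), a surface mucin also on the epithelial list, lower. HSD17B1 (0.58), an enzyme of estrogen synthesis, and the glucocorticoid-induced ZBTB16 (0.64) were called higher, and no co-factor was called.

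Between RB and non-RB cows over the whole uterus no tested gene of these lists passed even an unadjusted p of 0.05, where 2.21% of all probes did. The nominally higher genes were 6 of 9 co-factors (median 0.10), 4 of 13 enzymes (-0.11), 7 of 14 oxytocin and Gq genes (-0.01), 4 of 12 prolactin and growth hormone signalling genes (-0.03), 6 of 18 progesterone-responsive genes (-0.22), 4 of 13 estrogen-responsive genes (-0.02) and 6 of 9 glucocorticoid-responsive genes (0.08). The smallest unadjusted p values were those of STAR, which brings cholesterol to the mitochondrion (-0.65), the glucose transporter SLC2A1 (-0.63) and MSTN, myostatin (0.58), all with adjusted p = 1.0 by limma. The hormone PRL itself was at a difference of -1.10 (adjusted p = 1.0).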

How the data were processed

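RNA of CAR and ICAR endometrium of both uterine horns was hybridised by the authors to Agilent 1-colour arrays, and spots were read with Agilent Feature Extraction 9.5. The deposited processed intensity of each spot, background-corrected by that software, was used. The authors' deposited log2 table was the same quantity as used here, shifted on each array by 0.00420 to 0.0140, and served as an alternative. Here outlier-flagged spots were left out. Each probe was a single spot, so no spots were averaged. The log2(intensity), less the array's 75th percentile, was tested with limma 3.58.1 in R 4.3.3, with Benjamini-Hochberg adjustment over all probes tested. Comparisons of 8 arrays kept probes well above background on at least 2, and those of 32 arrays on at least 8. Tests across the whole uterus and of differences between compartments or horns used 4 against 4 means of a replicate number. Exact permutation tests were two-sided. The fits were tested on simulated data. The number of arrays limits the precision.

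Of 15208 probes 5881 had a symbol, from RefSeq accession (2514), gene ID (2016), gene name (1295) or description (56). The rule gave 1 probe a gene, so no choice among probes was needed. All 9 members, the 3 named genes most correlated with each and, from each list, up to 3 genes called between compartments and 2 of smallest p over the whole uterus are eligible for naming. The marker genes FOXA2, SPDEF, BPIFB1, MSX1 and SERPINA14 and the genes called when 2 arrays were left out were named after their values were seen, and 1 of the latter is not reported here. Members and lists were chosen with earlier results of these data known. Alternatives were another background correction, normalization, filters, slide and scan day, each replicate left out, and the replicate number as a block.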

Additional observations from a re-analysis of the deposited data

Results flagged for a closer look

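In ICAR contralateral, ESR2 of RB replicate 3 was at -5.31 while the other 3 RB arrays were at -2.82 to -2.62, so that this array stood apart by 0.924 of the range of the group. In CAR ipsilateral, HSD11B1 of non-RB replicate 1 was at -2.16 while the other 3 non-RB arrays were at -4.15 to -4.00, a gap of 0.925 of the range. These are 2 of 72 groups of 4 arrays checked, and chance marks about 1 in 20 such groups.

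HSD11B1 differed between RB and non-RB cows in its difference between horns, by -0.43 on the log2 scale (exact permutation p = 0.0286, the smallest possible; limma p = 0.058, adjusted p = 0.799). ESR1 probe ABR1454, which is outside the 9 member probes, differed between RB and non-RB cows in its difference CAR minus ICAR, by 0.53 (exact permutation p = 0.0286; limma p = 0.040, adjusted p = 1.0). Neither passed adjustment over all probes. The ABR1454 value includes the contralateral pair of RB replicate 3, whose compartment labels are in doubt.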

How the results depend on the processing

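The number of members called was 0 under every alternative in 8 of the 9 comparisons. For CAR against ICAR it was 1, and it fell to 0 with normexp background correction, without the 2 arrays of slide 1, within RB cows, within non-RB cows, within the contralateral horn and within the ipsilateral horn, and ran from 0 to 1 when 1 replicate was left out, with adjusted p from 0.00244 to 0.292. The ESR2 difference kept its sign throughout, from -1.89 to -1.16, and passed 0.05 in 11 of 23 settings. With the replicate block the count was 2, ESR2 (adjusted p = 0.0147) and GHR (0.87, adjusted p = 0.0196), and it was also 2 with the replicate block without the 2 arrays labelled RB 3 contralateral (adjusted p = 5.29e-05 and 0.00102), an alternative chosen after seeing the data, as were those within a horn. The numbers are not stated to be cows. Same-numbered arrays deviated together at a mean r of 0.413 in RB, where 22 of 24 pairs exceeded 0.1, and 0.381 in non-RB, where 21 of 24 did. The block changed no other call.

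Over all probes 174 were called between CAR and ICAR, 50 of them higher in CAR. Without a filter there were 120, with normexp 64 (9 higher), with the replicate block 1086, without RB replicate 3 909, without non-RB replicate 2 710, and without any other replicate or without slide 1 0. Without the 2 arrays labelled RB 3 contralateral there were 1282 (645 higher), and 2472 with the block as well. In the RB comparisons 4 differences changed sign with an unadjusted p below 0.05 on either side: with slide as a block PGRMC1 in CAR contralateral was -0.72, GHR in ICAR ipsilateral -2.13 and OXTR in ICAR ipsilateral 1.52, and with normexp PRLR over the whole uterus was -0.014. With slide as a block OXTR in ICAR contralateral kept its sign but was 2.86 against 0.14. In these compartments only slides 6 and 8 held both RB and non-RB arrays, so the slide-block values rest on the arrays of those slides. With the methods' t-test over 16 against 16 arrays, also chosen after seeing the data, 67 probes were called between RB and non-RB over the whole uterus, against 0. The cause of these changes was not tested. Of 1441 values of members under other settings, 1263 kept their direction and side of the threshold, 160 changed sign with an unadjusted p of 0.05 or more on both sides, 12 lost a call, 2 gained one and 4 are the sign changes above. PRLR and ESR1 are limited by signal near background.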
